A study of Homo sapiens with 6 samples.

Results

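The mitochondrial DNA of human cells encodes 13 mRNAs, 2 rRNAs and 22 tRNAs, and these 37 genes, of 33007 in the deposited table, are described here in LM3 cells with and without ZNF706 knockdown. The members were chosen by a gene name that begins with MT- and by the chromosome MT, with no measured value used, although the set was proposed with results of these data known. Of the 37 genes, 28 lay on the plus strand of the reference and 9 on the minus strand. All 37 passed the filter on low counts that was applied to the whole table, with between 53 and 796141 counts in a sample, and all 37 matched a GENCODE release 29 entry at the same GRCh38 position.

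LM3 is an established human hepatocellular carcinoma (HCC) cell line, labelled as liver with a WT genotype in every sample. RNA-seq of total RNA was performed in 3 control samples, described as vector control cells, and in 3 samples with stable ZNF706 knockdown. The study's methods describe knockdown with a short hairpin RNA in the pLKO.1 lentiviral vector and puromycin selection, and do not say which hairpin was sequenced. Nothing says whether the 3 samples of a group were separate cultures, so p-values measure only the spread between these samples. The library kit is not named beyond RNA-Seq sample preparation, and whether it selected poly(A) RNA or removed rRNA is not given in the sources used here. Depth was 62684076, 64713764 and 63054445 counts for control samples 1 to 3 and 68548419, 65861994 and 69057423 counts for knockdown samples 1 to 3, so that every knockdown library was deeper than every control library.

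Mitochondrial DNA is copied into long RNAs from both strands by a dedicated polymerase, and the tRNAs, which sit between most of the other genes, are cut out to release the mRNAs and rRNAs. The rRNAs and most mRNAs are carried by the transcript with the sequence of the plus strand. The minus strand transcript gives MT-ND6, an mRNA of complex I, and 8 tRNAs. All 13 proteins are subunits of respiratory chain complexes I, III and IV or of the ATP synthase, and the mitochondrial ribosome that makes them is built around both rRNAs.

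The tRNA genes below are shown because they fell most among the called genes or lay side by side in the block that fell together. They are printed as transcribed, 5′ to 3′, from the GENCODE release 29 transcripts (GRCh38), with the anticodon in capitals. The first 4 are minus strand neighbours, at chrMT:5587-5655 (MT-TA, alanine), chrMT:5657-5729 (MT-TN, asparagine), chrMT:5761-5826 (MT-TC, cysteine) and chrMT:5826-5891 (MT-TY, tyrosine). MT-TV (valine, chrMT:1602-1670) separates the rRNA genes on the plus strand, and MT-TT (threonine, chrMT:15888-15953) follows MT-CYB on the plus strand.
MT-TA: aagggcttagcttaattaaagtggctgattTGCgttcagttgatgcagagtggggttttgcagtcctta
MT-TN: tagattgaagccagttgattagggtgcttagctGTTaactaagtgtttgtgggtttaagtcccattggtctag
MT-TC: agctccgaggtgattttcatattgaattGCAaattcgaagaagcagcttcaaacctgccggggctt
MT-TY: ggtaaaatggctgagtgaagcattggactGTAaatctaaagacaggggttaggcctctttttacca
MT-TT: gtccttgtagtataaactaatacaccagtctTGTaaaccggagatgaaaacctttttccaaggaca
MT-TV: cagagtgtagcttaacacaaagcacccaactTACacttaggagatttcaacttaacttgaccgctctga

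ZNF706 itself was counted 3211, 3504 and 3357 times in the control libraries and 2350, 2068 and 2298 times in the knockdown libraries. It fell by 0.73 on the log2 scale (standard error 0.050, edgeR adjusted p = 3.7e-05), so the labels and the gene's own level pointed the same way. The liver label was checked against marker genes. The epithelial keratins KRT8 and KRT18 were high, with 190.3 to 207 and 258 to 283 FPKM (counts per gene length and library size). The defining hepatocyte markers were near 0: ALB was at most 3.57 FPKM, AFP at most 1.09 and HNF4A at most 0.23. ALB was lowest in control sample 1 and knockdown sample 3, with 0.77 and 0.50 FPKM against 2.17 to 3.57 in the other samples. Of 13 hepatocyte and HCC markers tested, SERPINA1, APOB and APOH, each below 1 FPKM, were called lower, and the summed level of the list was 456 to 489.9 FPKM in the control and 454 to 471 in the knockdown samples, nearly all from both keratins. KRT7, a keratin of bile duct epithelium and 1 of 4 such markers tested, fell from 328 to 342 FPKM in the control samples to 248 to 255 in the knockdown samples. Of the other 3, KRT19 was at 0.28 to 0.59 FPKM in the control and 0.74 to 0.95 in the knockdown samples, without overlap (log2 fold change 0.83, edgeR adjusted p = 0.054), EPCAM had a log2 fold change of 0.75 and SOX9 of -0.95. None of these 3 was called by edgeR, while DESeq2 and edgeR with library size alone each called 1 bile duct marker higher. CD68, which macrophages carry in lysosomes, was at 10.4 to 10.7 FPKM in the control samples and 16.5 to 18.1 in the knockdown samples, while the leukocyte marker PTPRC was at most 0.01 FPKM and the other 3 leukocyte markers tested were not called. The summed level of 7 fibroblast markers was 9.62 to 11.5 FPKM in the control and 12.5 to 12.7 in the knockdown samples, of which COL1A1 gave most. COL1A1, PDGFRB and THY1 were called higher of 6 tested, whereas COL3A1, LUM and DCN, each below 1 FPKM, had log2 fold changes of -2.04, -1.26 and -0.04 and were not called. The median of the 6 was 0.08, and COL1A2 was at most 0.15 FPKM. Of the endothelial markers, CDH5 was called lower of 2 tested, and VWF was at most 0.03 FPKM. The counts called in these marker lists are to be read against the 12.4% of all genes called lower and the 10.4% called higher. The part of these markers in the mitochondrial results was not tested.

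The mitochondrial genes were among the most abundant in the cells. By mean FPKM, 15 of the 20 highest genes of the table were mitochondrial, with MT-CO1 first. The counts on the 37 genes took 5.40%, 5.19% and 5.40% of the control libraries and 5.03%, 5.02% and 4.79% of the knockdown libraries. The mean share was 5.33% ± 0.124 (SD, n = 3) in the control and 4.94% ± 0.134 (SD, n = 3) in the knockdown group, which fell by 0.386 percentage points. The groups did not overlap, and the gap was larger than the SD within either group. The exact 95% binomial (Clopper-Pearson) intervals of single samples, which cover counting error only, were much narrower than the spread between samples, for example 5.397% to 5.408% in control sample 1. With 3 samples against 3, an exact permutation test cannot give a two-sided p below 0.1, so shares are given as descriptions. In bulk RNA, fewer cells of a type, fewer mitochondrial genomes per cell and less RNA per genome cannot be told apart.

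The decrease was unequal between the RNA classes. The mRNAs took 4.75% ± 0.140 of a control library and 4.50% ± 0.134 of a knockdown library (SD, n = 3 each), and control sample 2, at 4.593%, lay just above knockdown sample 1, at 4.580%. The rRNAs took 0.534%, 0.526% and 0.475% of the control and 0.398%, 0.401% and 0.395% of the knockdown libraries, a fall of the mean share by 22.2% of its control value. The counts on tRNA genes were 0.0663%, 0.0677% and 0.0656% of the control and 0.0464%, 0.0489% and 0.0514% of the knockdown libraries, a fall by 26.5%. These counts do not separate a cut tRNA from the longer RNA that carries it, so levels of finished tRNA were not measured. Within the mitochondrial counts, the rRNA part was 9.61% ± 0.710 in the control and 8.06% ± 0.176 in the knockdown group, and the mRNA part rose from 89.1% ± 0.747 to 91.0% ± 0.252 (SD, n = 3 each), with no overlap between the groups in either.

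**Figure D1:**
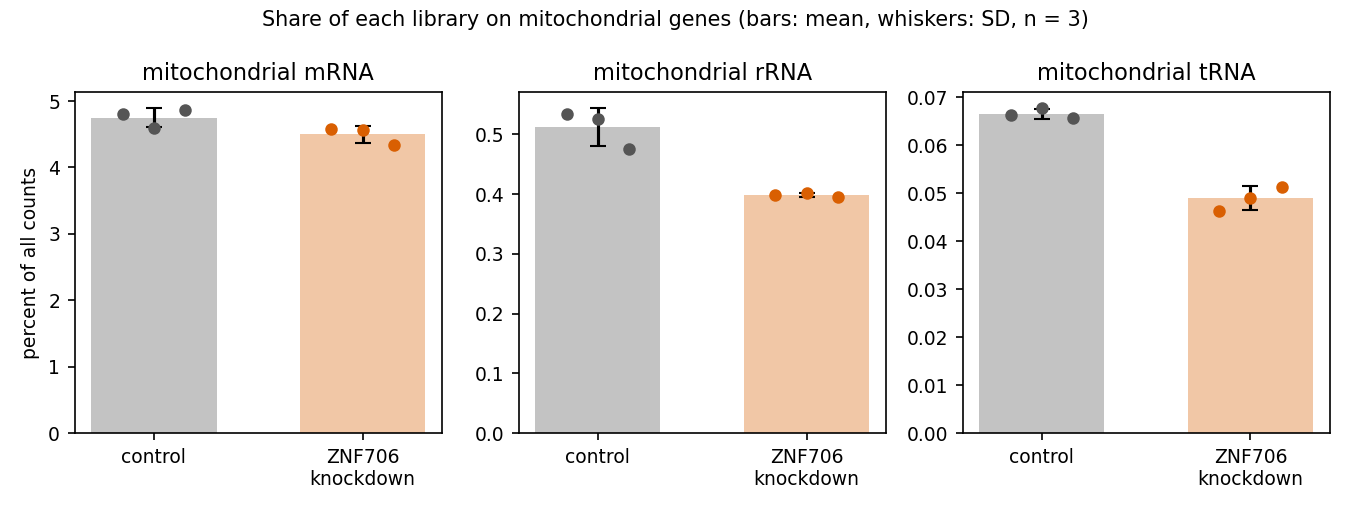
Percent of all counts in each library on mitochondrial mRNA, rRNA and tRNA genes, by group. Points are samples, bars the means and whiskers the SD (n = 3). The 3 vertical scales differ, and the gap between the groups is wider, against its own scale, for rRNA and tRNA than for mRNA.

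Gene by gene, 18 of the 37 members fell at an adjusted p below 0.05 in edgeR's quasi-likelihood test across 18390 genes. No member rose in edgeR, where 0 were higher at an unadjusted p below 0.05, nor in DESeq2, where 1 was. MT-CO2 was called higher once knockdown sample 3 was left out. Over all genes tested, 12.4% were called lower and 10.4% higher, or 2286 and 1906 genes. With library size alone as the scale the balance turned to 1518 lower and 2741 higher, and 16 members were then called lower and 1 higher. The TMM factors were 0.974 to 0.988 for the control and 1.014 to 1.024 for the knockdown libraries, so fold changes were lower with TMM than with library size alone. The median log2 fold change of the members was -0.28, against 0.01 over all genes tested. With library size alone these medians were -0.23 and 0.06. Under TMM, 35 of 37 fitted values were below 0, of which MT-TK turned above 0 with library size alone as the scale. In 23 members every knockdown sample was below every control sample, a pattern that 19.7% of all tested genes had, and no member showed the reverse. The 18 genes called were both rRNAs, 6 of 13 mRNAs and 10 of 22 tRNAs. By strand, 7 of 9 minus strand genes and 11 of 28 plus strand genes were called, with a median log2 fold change of -0.51 and -0.24. The minus strand calls included the close neighbours MT-TA, MT-TN, MT-TC and MT-TY, which are not independent of each other. This difference between strands was not tested.

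**Figure D2:**
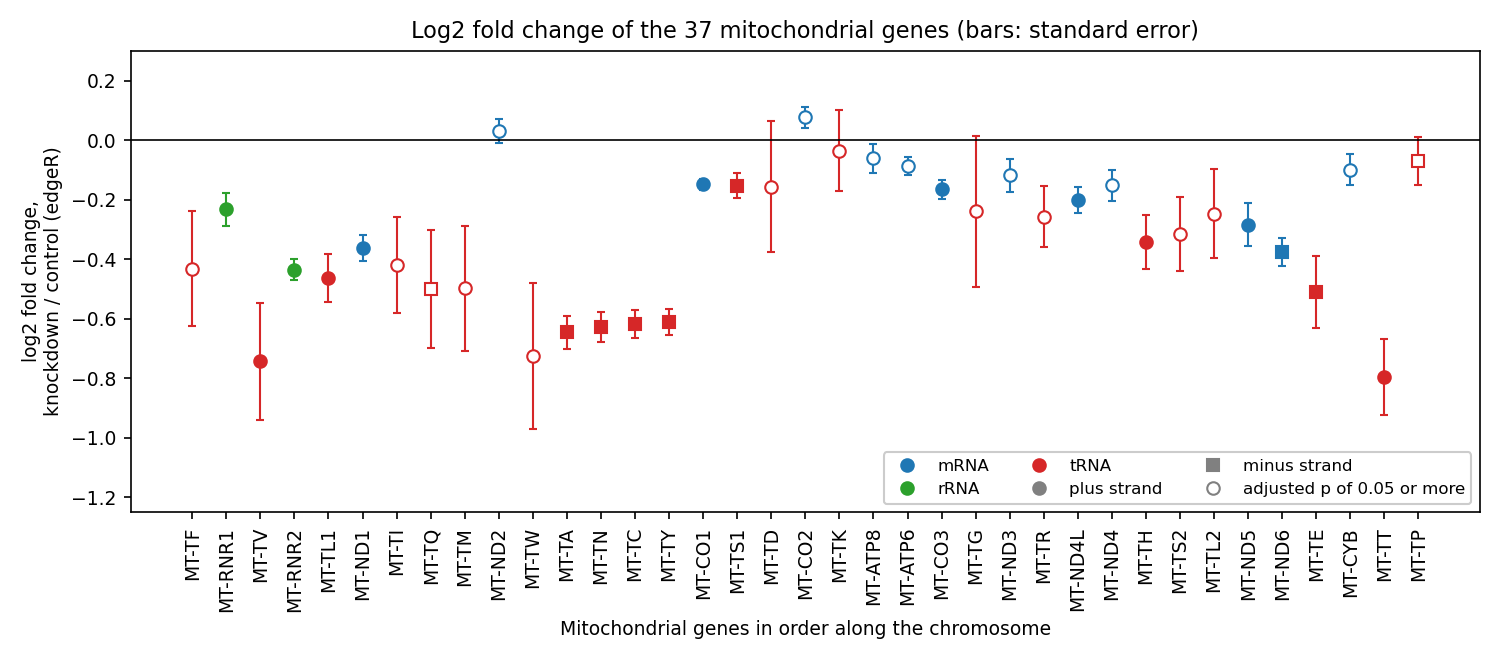
Log2 fold change of knockdown over control for each of the 37 genes, in their order along the chromosome, from edgeR, with the standard error as bars. Colours mark the RNA class, squares the minus strand and open symbols an adjusted p of 0.05 or more. With this TMM scaling MT-ND2 and MT-CO2 alone lie above 0 (MT-TK joins them with library size alone), and the neighbours MT-TA, MT-TN, MT-TC and MT-TY lie together between -0.65 and -0.61.

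Both rRNAs fell. MT-RNR2 (ENSG00000210082), the rRNA of the large mitochondrial ribosomal subunit, had 4887, 4814 and 4426 CPM (counts over the TMM-scaled library size) in the control and 3472, 3508 and 3464 CPM in the knockdown samples. All 3 knockdown samples lay close together and far below the lowest control sample. Its log2 fold change was -0.44 (standard error 0.035, edgeR adjusted p = 6.7e-05). MT-RNR1 (ENSG00000211459), the rRNA of the small subunit, had 519, 535 and 453 CPM in the control and 418, 428 and 437 CPM in the knockdown samples. Control sample 3 was nearer to the knockdown samples than to the other controls, and the log2 fold change was -0.23 (standard error 0.055, edgeR adjusted p = 0.014). That call was lost without control sample 1, control sample 2 or knockdown sample 2 (largest adjusted p = 0.059), with limma on FPKM, and with the summed mitochondrial mRNA counts as the scale (-0.10, adjusted p = 0.38). The ratio of the rRNAs does not depend on how the libraries are scaled. The log2 ratio of MT-RNR2 to MT-RNR1 counts was 3.23 ± 0.0592 in the control and 3.03 ± 0.0349 in the knockdown group (SD, n = 3 each), and the groups did not overlap. Both genes lie next to each other on the same transcript, with MT-TV between them, from chrMT:648-1601 to chrMT:1671-3229.

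All 22 tRNA genes had a fitted log2 fold change below 0 under TMM scaling, and all but MT-TK with library size alone. The median was -0.45 under TMM. MT-TT carried the largest fall of any member, from 6.64, 6.26 and 5.72 CPM in the control to 3.51, 3.41 and 3.80 CPM in the knockdown samples (log2 fold change -0.80, standard error 0.13, edgeR adjusted p = 0.0019). MT-TV followed, with 2.47, 2.14 and 2.05 CPM against 1.41, 1.27 and 1.30 CPM (log2 fold change -0.74, standard error 0.20, edgeR adjusted p = 0.023). The groups did not overlap in either gene. MT-TV had only 85 to 153 counts in a sample, and its call was lost without control sample 1, knockdown sample 2 or knockdown sample 3, with a log2 fold change of at most -0.66 in each.

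The block MT-TA, MT-TN, MT-TC and MT-TY, picked out for its position after its values were seen, held most of the tRNA counts: 67.1% in the control and 61.5% in the knockdown group. The 4 genes fell by nearly the same proportion. They lie side by side within chrMT:5587-5891, where a sequenced fragment can cover more than 1 of them. Their equal falls are therefore not 4 independent measurements. MT-TA had 65.4, 66.8 and 69.3 CPM in the control and 39.6, 43.6 and 45.5 CPM in the knockdown samples (log2 fold change -0.65, standard error 0.054). MT-TN had 124, 128 and 129.8 CPM against 75.9, 84.5 and 86.8 CPM (log2 fold change -0.63, standard error 0.051). MT-TC had 120.1, 125 and 125.1 CPM against 75.1, 82.5 and 83.7 CPM (log2 fold change -0.62, standard error 0.046). The sequence of MT-TC shares 1 base with that of MT-TY, and knockdown sample 1 was the lowest sample in all 4 genes. MT-TY, the tRNA gene with the highest CPM, had 134.5, 139.9 and 136.6 CPM against 83.9, 92.7 and 92.4 CPM (log2 fold change -0.61, standard error 0.045). The largest edgeR adjusted p of the 4 genes was 8.4e-05, and each stayed called whichever of the 6 samples was left out.

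Other tRNA genes near this block or on its strand differed in how far they moved. MT-TS1 (serine), also on the minus strand and on the far side of MT-CO1, had 50.4, 51.4 and 53.0 CPM in the control and 45.9, 45.6 and 47.6 CPM in the knockdown samples (log2 fold change -0.15, standard error 0.042, edgeR adjusted p = 0.026). Its groups did not overlap, but the call was lost with library size alone and without control sample 2 or 3 or knockdown sample 1 or 2. Within libraries, the log2 ratio of the block's counts to those of MT-CO1 went from -4.79 ± 0.0288 in the control to -5.26 ± 0.0786 in the knockdown group, while the log2 ratio of MT-TS1 to MT-CO1 was -7.93 ± 0.0279 and -7.93 ± 0.0353 (SD, n = 3 each). MT-TP (proline), the minus strand tRNA nearest the control region, had 16.2, 15.5 and 17.0 CPM against 14.8, 15.4 and 16.1 CPM, and the groups overlapped (log2 fold change -0.07, standard error 0.080, edgeR adjusted p = 0.59). MT-TW (tryptophan), which precedes the block on the other strand, had 53 to 88 counts in a sample and no overlap between the groups, but missed the threshold (log2 fold change -0.73, standard error 0.25, edgeR adjusted p = 0.060), which it passed with limma on FPKM.

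**Figure D3:**
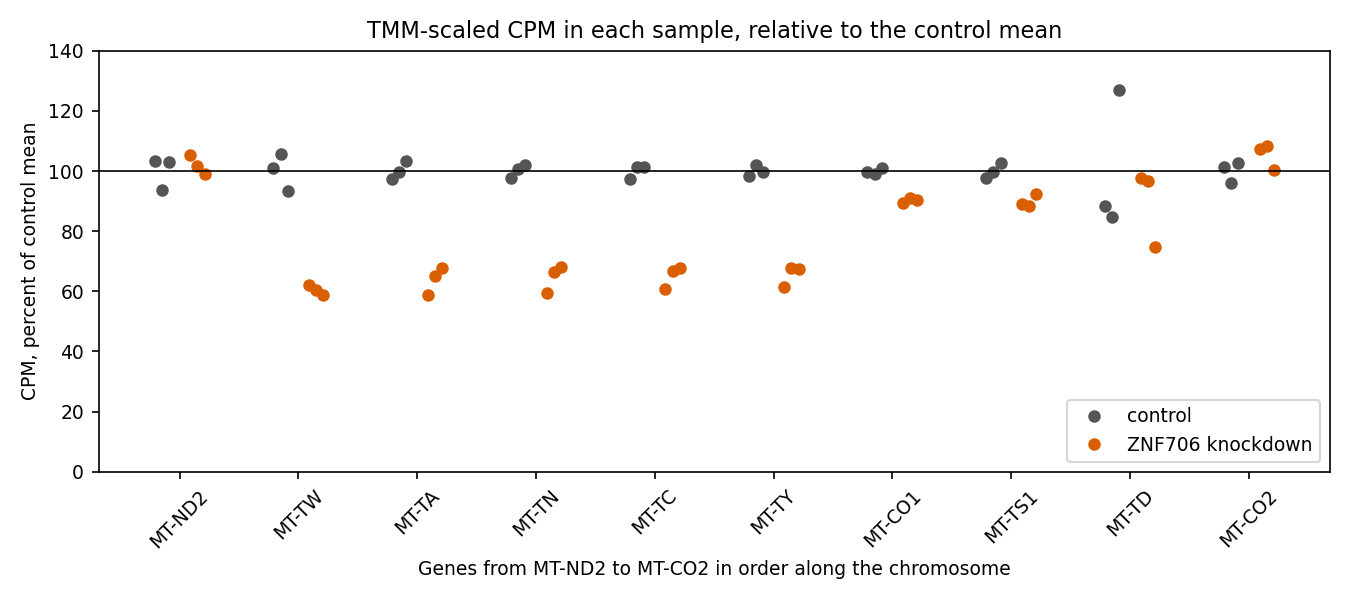
TMM-scaled CPM in each sample as a percent of the control mean of the same gene, for the genes from MT-ND2 to MT-CO2 in their order along the chromosome. Points are samples. The knockdown points of MT-TW, MT-TA, MT-TN, MT-TC and MT-TY lie well below all control points, those of MT-CO1 and MT-TS1 slightly below, and those of MT-ND2, MT-TD and MT-CO2 among or near the control points.

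The remaining called tRNAs were MT-TL1 (leucine, log2 fold change -0.46, standard error 0.080), MT-TE (glutamate, -0.51, standard error 0.12) and MT-TH (histidine, -0.34, standard error 0.091), with edgeR adjusted p values of 0.0030, 0.014 and 0.024. MT-TH kept its call without knockdown sample 3 and lost it when any other sample was left out, whereas MT-TL1 and MT-TE were called in all 6 such fits. MT-TF, MT-TI, MT-TQ and MT-TM had no overlap between the groups and log2 fold changes of -0.50 to -0.42. They had 82 to 217 counts in a sample and missed the threshold (largest edgeR adjusted p = 0.15). With limma on FPKM, MT-TI, MT-TQ and MT-TM were called lower. MT-TG (glycine) varied most within groups, with 23.9, 25.9 and 12.2 CPM in the control and 16.1, 14.2 and 22.2 CPM in the knockdown samples. Control sample 3 was below all knockdown samples, and no difference was detectable (log2 fold change -0.24, standard error 0.25, edgeR adjusted p = 0.56). MT-TL2 and MT-TS2 had the same order, with control sample 3 lowest among controls and knockdown sample 3 highest among knockdown samples. MT-TR, MT-TD and MT-TK also overlapped between the groups. MT-TR was called lower without control sample 3, and MT-TS2 without knockdown sample 3.

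The mRNAs moved least, with a median log2 fold change of -0.15 over 13 genes. Per length, MT-ND4L (7139 ± 292 FPKM) and MT-CO1 (7033 ± 51.5 FPKM) were the highest mRNAs in the control group, and MT-ND6 (543 ± 32.8 FPKM) was the lowest, a 13.1-fold range (SD, n = 3 each). MT-ND4L and MT-CO1 did not differ beyond their spread. Of 7 complex I mRNAs, 4 fell. MT-ND1 (ENSG00000198888, chrMT:3307-4262) had 2611, 2542 and 2701 CPM in the control and 2113, 2111 and 1890 CPM in the knockdown samples (log2 fold change -0.36, standard error 0.043, edgeR adjusted p = 0.00048). MT-ND6 (ENSG00000198695, chrMT:14149-14673), the minus strand mRNA, had 349, 313 and 329 CPM against 245, 252 and 266 CPM (log2 fold change -0.38, standard error 0.047, edgeR adjusted p = 0.00056). Both genes separated the groups clearly. MT-ND4L had 2460, 2345 and 2565 CPM against 2212, 2189 and 2003 CPM (log2 fold change -0.20, standard error 0.043, edgeR adjusted p = 0.0086), a call that was lost with limma on log2(FPKM + 0.1) (-0.15, adjusted p = 0.092).

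MT-ND5 had 1701, 1606 and 1345 CPM in the control and 1261, 1221 and 1339 CPM in the knockdown samples, so that control sample 3 and knockdown sample 3 nearly met (log2 fold change -0.28, standard error 0.073, edgeR adjusted p = 0.020). Its call was lost without control sample 1 or 2 or knockdown sample 1 or 2, with library size alone and with limma on FPKM. MT-ND2 (ENSG00000198763, chrMT:4470-5511) had 2538, 2295 and 2527 CPM against 2584, 2498 and 2431 CPM, and the groups overlapped (log2 fold change 0.03, standard error 0.040, edgeR adjusted p = 0.66). MT-ND3 and MT-ND4 overlapped too, with log2 fold changes of -0.12 and -0.15 and edgeR adjusted p values of 0.17 and 0.060. MT-ND3 was called lower without control sample 3, and MT-ND4 without control sample 2. MT-ND4L and MT-ND4 share a stretch of 7 bases and are carried on a single mRNA, so reads at the junction cannot be assigned to either. It is printed to show how the reading frames interlock, with the start codon of MT-ND4 and the last bases of MT-ND4L, its stop codon, in capitals.
MT-ND4L and MT-ND4 overlap: ATGcTAA

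Of the 3 complex IV mRNAs, 2 fell. MT-CO1 (ENSG00000198804, chrMT:5904-7445), the catalytic subunit and the gene with the highest mean count of the table, had 12532, 12461 and 12705 CPM in the control and 11218, 11418 and 11372 CPM in the knockdown samples. With TMM scaling, which enlarged the falls, the fall of 9.79% was small but several times the spread within either group (log2 fold change -0.15, standard error 0.018, edgeR adjusted p = 0.00048). MT-CO3 had 5045, 4965 and 5018 CPM against 4659, 4487 and 4256 CPM (log2 fold change -0.17, standard error 0.031, edgeR adjusted p = 0.0045). Both calls were lost with limma on log2(FPKM + 0.1), at -0.10 for MT-CO1 and -0.12 for MT-CO3 (adjusted p = 0.12 for each). MT-CO2 (ENSG00000198712, chrMT:7586-8269), which carries the copper site that accepts electrons from cytochrome c, had 3585, 3386 and 3624 CPM against 3790, 3831 and 3549 CPM. Its groups overlapped (log2 fold change 0.08, standard error 0.036, edgeR adjusted p = 0.16). MT-CO2 was called higher with library size alone as the scale, at 0.13, and without knockdown sample 3, at 0.11.

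Neither ATP synthase mRNA passed the test. MT-ATP8 had a log2 fold change of -0.06 (standard error 0.049, edgeR adjusted p = 0.43) and MT-ATP6 of -0.09 (standard error 0.030, edgeR adjusted p = 0.061). MT-ATP6 was called lower by DESeq2, with the replicate number as a block and without control sample 2. These genes share 46 bases and a single mRNA, and the shared stretch at chrMT:8527-8572 is printed because counts there cannot be told apart. It begins with the start codon of MT-ATP6 and ends with the stop codon of MT-ATP8, both in capitals.
MT-ATP8 and MT-ATP6 overlap: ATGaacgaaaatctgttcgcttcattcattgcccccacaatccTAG

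MT-CYB, the mitochondrial subunit of complex III, had 2092, 2062 and 2378 CPM against 2098, 2062 and 1940 CPM, with overlap (log2 fold change -0.10, standard error 0.052, edgeR adjusted p = 0.22).

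Because the 13 mRNAs come from shared precursors, their make-up was also compared within each library, which removes the scaling between libraries. MT-ND1 took 5.37%, 5.44% and 5.41% of the mitochondrial mRNA counts in the control and 4.72%, 4.71% and 4.41% in the knockdown samples. MT-ND2, the next mRNA along the chromosome, took 5.22%, 4.91% and 5.07% against 5.77%, 5.57% and 5.68%. MT-CO2 took 7.37%, 7.25% and 7.26% against 8.47%, 8.54% and 8.29%. The groups did not overlap in these 3 genes, nor in MT-ND6 (0.682% ± 0.0317 against 0.577% ± 0.0395) and MT-ND4L (5.07% ± 0.0629 against 4.83% ± 0.140, SD, n = 3 each). Each of the 5 genes gave the smallest p that the exact two-sided permutation test allows, 0.1, or 0.229 adjusted over 16 comparisons. The other 8 mRNAs overlapped between the groups. The 16 comparisons also held sums by complex. Complex I mRNAs took 42.1% ± 0.676 against 41.0% ± 0.383 and ATP synthase mRNAs 9.80% ± 0.200 against 10.2% ± 0.113 (SD, n = 3 each). Neither sum overlapped between the groups, and each gave the same p values in that test. Complex IV mRNAs overlapped, at 43.6% ± 0.875 against 44.2% ± 0.455.

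**Figure D4:**
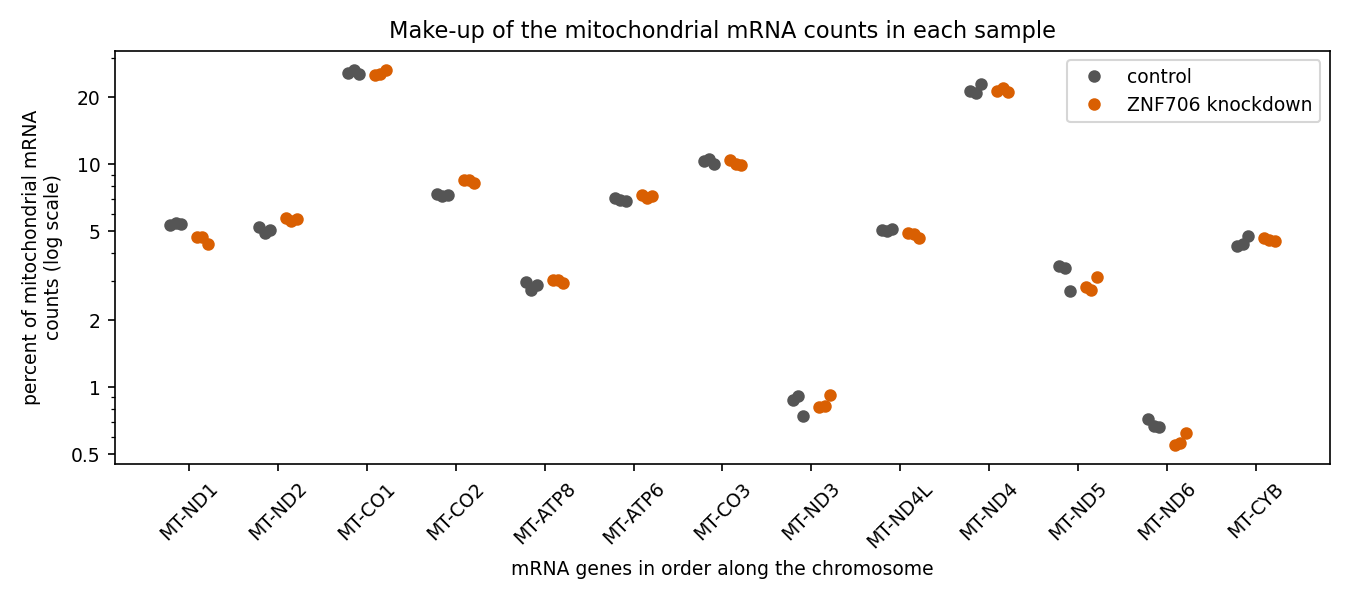
Percent of the counts on the 13 mitochondrial mRNAs taken by each gene, in each sample, on a log scale. Points are samples. MT-ND2 and MT-CO2 take a larger part and MT-ND1 and MT-ND6 a smaller part in all 3 knockdown samples than in any control sample, and MT-ND5 and MT-ND3 spread widely within the control group.

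Log2 ratios of neighbouring genes were computed for all 14 pairs of mRNAs and rRNAs that follow each other along the chromosome. In 7 pairs the groups overlapped, in 3 the knockdown samples lay above the control samples and in 4 below. The largest change was between MT-ND1 and MT-ND2, where the log2 ratio of MT-ND2 to MT-ND1 went from -0.09 ± 0.0537 to 0.30 ± 0.0607. That of MT-CO2 to MT-CO1 went from -1.83 ± 0.0416 to -1.61 ± 0.0633, and that of MT-CYB to MT-ND6, which lie on opposite strands, from 2.719 ± 0.136 to 2.999 ± 0.121 (SD, n = 3 each). The 7 pairs without overlap gave an adjusted p of 0.2 over the 14 pairs in the exact two-sided permutation test.

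The nuclear genome holds copies of mitochondrial DNA, and reads from the 2 sources can be exchanged where the sequences are nearly the same. The table held 73 such copies, and together they took 0.124% ± 0.00251 of the control and 0.122% ± 0.00279 of the knockdown libraries (SD, n = 3 each), with overlap. MTATP6P1, whose sequence was 98.5% identical to MT-ATP6 with 10 mismatches over 681 bases, had a log2 fold change of -0.12 (standard error 0.030, edgeR adjusted p = 0.018). MTCO1P12, 98.7% identical to MT-CO1, had -0.19 (standard error 0.041, edgeR adjusted p = 0.0082), and MTND2P28, 98.4% identical to MT-ND2, had 0.02 (standard error 0.040, edgeR adjusted p = 0.81). MTND4P12 and MTCO3P12 had at most 496 counts in a sample and were not called. Levels of these copies and of their mitochondrial counterparts are therefore uncertain by the reads that the counting placed on the other.

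Some abundant RNAs without a poly(A) tail were also examined, since the mitochondrial tRNAs carry no such tail and the rRNAs a short one. RN7SK, a small nuclear RNA that restrains transcription elongation, was at 0.49 to 1.07 FPKM, and the spliceosomal RNAs RNU1-1 and RNU2-1 were at most 0.34 FPKM. Of 14 such RNAs in the table, 5 were tested by edgeR, with 0 called and 1 higher at an unadjusted p below 0.05. DESeq2 called 0 of 14, and limma on FPKM called 1 of 3 higher. Their summed level was 23.5, 24.3 and 20.6 FPKM in the control and 40.5, 18.5 and 29.6 FPKM in the knockdown samples, mostly from RN7SL1 and RN7SL2, and the groups overlapped. The median log2 fold change of the 5 tested was 0.69. SNORD3A, a nucleolar RNA of rRNA processing, was at 1.15 to 1.87 FPKM in the control and 2.49 to 2.58 in the knockdown samples (log2 fold change 0.69, edgeR adjusted p = 0.059), and RPPH1, the RNA of ribonuclease P, also did not overlap, at 0.16 to 0.40 and 0.50 to 0.84 FPKM. With library size alone, edgeR called 1 of the 5 higher. The part of library selection in the tRNA, rRNA and mRNA results, that of MT-ND6 included, was not tested.

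The nuclear genes that serve mitochondrial DNA did not move in a single direction. The counts of each list that follow are to be read against the 12.4% of all genes called lower and the 10.4% called higher, since a share near these is not a result about the list. Of 9 genes for its transcription, 1 rose and 2 fell. POLRMT, the mitochondrial RNA polymerase, rose from 61.4 ± 3.28 to 74.2 ± 0.423 CPM (log2 fold change 0.27, standard error 0.044, edgeR adjusted p = 0.0019). TFAM, which packages the DNA and bends its promoters, fell from 169 ± 2.73 to 148 ± 3.39 CPM (log2 fold change -0.19, standard error 0.034, edgeR adjusted p = 0.0032). TFB2M, which helps the polymerase open a promoter, fell from 84.0 ± 1.84 to 72.2 ± 1.46 CPM (log2 fold change -0.22, standard error 0.036, edgeR adjusted p = 0.0022, SD and n = 3 for each of these levels). Of 25 replication and maintenance genes, 4 rose and 6 fell, but 7 rose and 5 fell with library size alone and 6 rose and 5 fell with limma on FPKM. TWNK, the replicative helicase, fell (log2 fold change -0.29, adjusted p = 0.00075), and so did ATAD3B (-0.28) and EXOG, a mitochondrial nuclease (-0.35). TYMP (0.46) and TK2 (0.29), enzymes of thymidine metabolism, rose, as did PRIMPOL (0.40). The DNA polymerase POLG had a log2 fold change of -0.08 and an edgeR adjusted p of 0.22.

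Of 20 genes for mitochondrial RNA processing and decay, 6 rose and 1 fell. SLIRP, which binds and stabilizes mitochondrial mRNAs together with LRPPRC, rose (log2 fold change 0.33, edgeR adjusted p = 0.0020), as did PTCD2 (0.29) and PTCD1 (0.27). LRPPRC itself stood at -0.07 on the log2 scale (edgeR adjusted p = 0.24). FASTKD5, which takes part in the maturation of mRNA ends that no tRNA flanks, fell (-0.33, adjusted p = 0.0062). Of 22 genes tested for rRNA modification and ribosome assembly, 2 rose and 1 fell: MRM1, a methyltransferase of MT-RNR2 (0.50), RPUSD3, a pseudouridine synthase (0.35), and MALSU1, a factor of the large subunit (-0.28). With library size alone 5 were called higher and with limma on FPKM 4. Of 22 tRNA maturation genes, 4 rose and 3 fell, or 6 and 2 both with library size alone and with limma on FPKM. AARS2, which charges the product of MT-TA with alanine, rose (0.19, adjusted p = 0.044), as did OSGEPL1 (0.49), whereas TRMU (-0.29), YRDC (-0.29) and QTRT2 (-0.21), which act in tRNA base modification, fell, YRDC losing its call in both of those fits. Of 16 translation factors, 4 rose, among them the elongation factor TUFM (0.25), and 1 was called lower (PTCD3, -0.11), a call lost with library size alone and with limma on FPKM, where 0 were lower at an unadjusted p below 0.05.

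Regulators of mitochondrial biogenesis were lower more often than higher, with 7 of 14 called lower, 2 higher and a median log2 fold change of -0.17, beside 12.4% lower and 10.4% higher over all genes. With library size alone 5 of 14 were called lower, and with limma on FPKM 5 of 12. NRF1, a transcription factor of nuclear genes for mitochondria, had 1480, 1533 and 1513 counts in the control and 1148, 1152 and 1249 in the deeper knockdown libraries (log2 fold change -0.50, standard error 0.070, edgeR adjusted p = 0.0010). The deacetylase SIRT1 (-0.45) and GABPA (-0.26), the DNA-binding subunit of another such factor, fell too. TFEB, a regulator of lysosomal genes, rose (0.61, adjusted p = 0.0076), and so did GABPB2 (0.38).

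Few nuclear partners of the mitochondrial proteins were called lower. Of 7 core and 30 supernumerary complex I genes, 1 and 4 rose and 0 fell in edgeR, with medians of 0.02 and 0.09, and NDUFC1 (0.36) and NDUFB10 (0.33) rose most. The counts called higher were 3 and 11 with limma on FPKM and 3 and 9 with library size alone. Of 9 complex III genes, 0 were called by edgeR with TMM scaling or by DESeq2. Limma on FPKM called 2 of them higher, and so did edgeR with library size alone. Of 11 complex IV genes tested, COX5A rose (0.13) and COX6C fell (-0.23). Of 18 ATP synthase genes, 4 rose and 0 fell, with ATP5F1D (0.30) and ATP5MC1 (0.23) highest, and 7 rose with limma on FPKM and 8 with library size alone. In complex I and the ATP synthase, edgeR, DESeq2 and limma on FPKM all gave 0 genes lower at an unadjusted p below 0.05. Of 13 mitochondrial proteases and chaperones, 5 rose, among them OMA1 (0.49), TRAP1 (0.25) and CLPP (0.24), and 1 was called lower (ATF5, a stress response transcription factor, -0.31), which was lost with library size alone. Of 11 mitophagy genes tested, edgeR called SQSTM1, a receptor for cargo of autophagy, lower at -0.18 and 0 higher. Other fits gave higher calls, 1 with DESeq2, 1 with library size alone and 2 with limma on FPKM, each beside 1 lower. The differences between these lists and the mitochondrial genes were not tested.

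**Figure D5:**
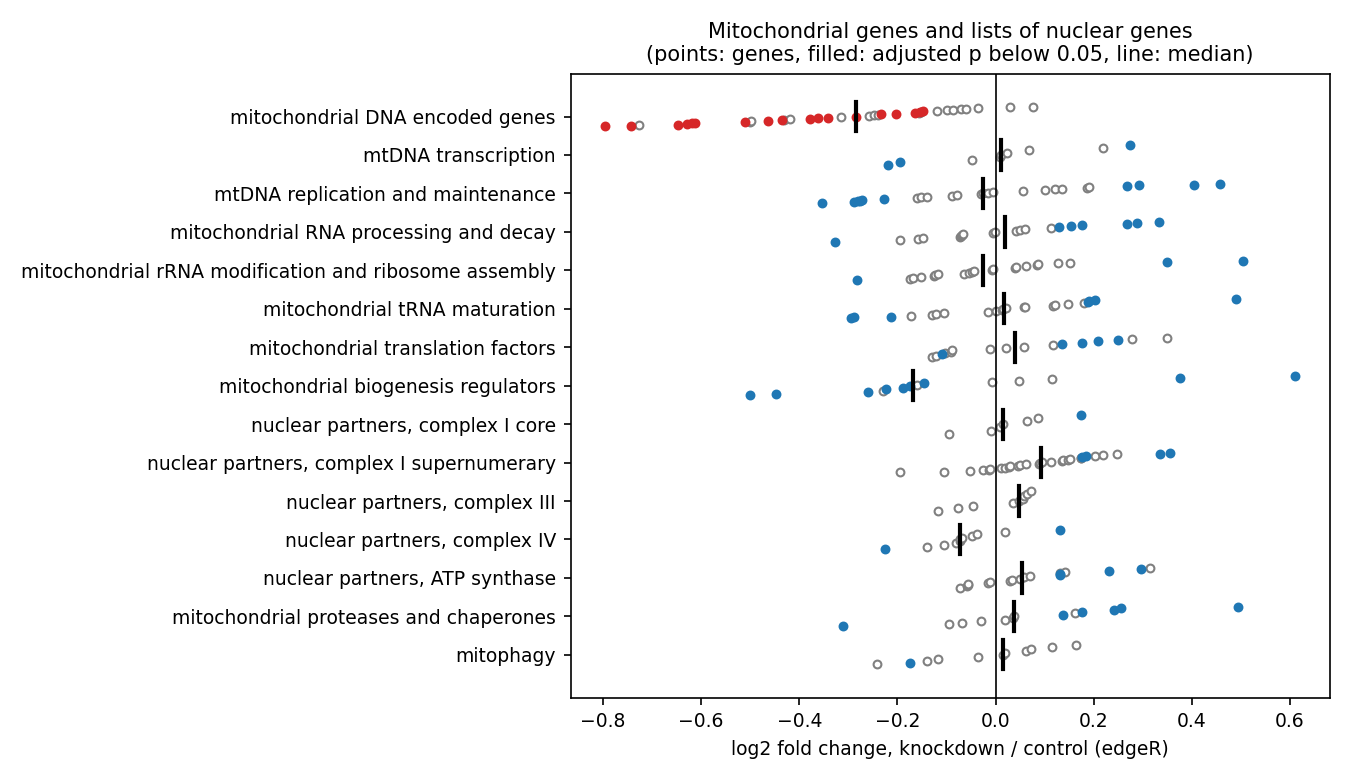
Log2 fold change of knockdown over control, from edgeR, for the 37 mitochondrial genes and for lists of nuclear genes that serve mitochondria. Each point is a gene, filled where its adjusted p is below 0.05, and the line is the median of the list. The mitochondrial genes have a median of -0.28, the biogenesis regulators of -0.17, and every other list lies between -0.07 and 0.09.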

How the data were processed

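RNA from LM3 cells, 3 control and 3 ZNF706 knockdown samples, was sequenced on an Illumina NovaSeq system. The submitters' processing notes name cutadapt 1.9, FastQC and GRCh38, and the study's methods name HISAT2 for mapping. The counting program, its strand setting and the annotation release are not given in the sources used here. Reads of overlapping and opposite genes may therefore be mixed. The deposited counts are raw reads per gene, without normalization by the authors. The deposited FPKM values were scaled by the authors to gene length and library size. For the mitochondrial genes both hold the same information.

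After filterByExpr and TMM scaling, the groups were compared by the quasi-likelihood test of edgeR 4.0.16 (R 4.3.3), with group as the sole term and Benjamini-Hochberg adjustment over 18390 genes. The standard error was taken from the fold change and its F statistic. CPM values are TMM-scaled. Shares, ratios and exact permutation tests were computed in Python 3.11.15 with scipy 1.17.1. The fit was tested on simulated data. Alternatives were DESeq2 1.42.0, other scalings and filters, the replicate number as a block, leaving out each sample, and limma 3.58.1 on log2(FPKM + 0.1) and log2(FPKM + 1).

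The members and lists were chosen with earlier results of these data known. All mitochondrial genes could be named. Of each nuclear list, up to 3 genes per direction with the largest change among those with an adjusted p below 0.05 and a mean count of at least 50 were named, with ZNF706, TFAM, POLRMT, TFB2M, TWNK, POLG, LRPPRC and SLIRP named always. The 5 most abundant nuclear copies were named. The marker genes and RNAs without a poly(A) tail named at low levels, the neighbour ratios and the block of 4 tRNAs were chosen after values were seen. A few list members are not reported here.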

Additional observations from a re-analysis of the deposited data

How the results depend on the processing

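The count of 18 called genes stayed between 16 and 21 under the tools, scalings, filters and criteria named next. It was 19 under DESeq2, 18 with DESeq2's size factors and 17 with library size alone, where MT-CO2 was called higher. Scaling from nuclear genes gave 18, all counted genes kept without a filter 16, and genes kept from a mean count of 50 gave 21. Limma on log2(FPKM + 0.1) or log2(FPKM + 1) gave 17 each. The study's thresholds, an unadjusted p below 0.05 and a log2 change of at least 0.3, gave 17 on the edgeR fit, where the study used DESeq2. That set lacked MT-RNR1, MT-CO1, MT-TS1, MT-CO3, MT-ND4L and MT-ND5 and added MT-TI, MT-TQ, MT-TM, MT-TW and MT-TS2. Leaving out a sample gave 13 to 19, the 19 being 18 lower and MT-CO2 higher, without knockdown sample 3. The log2 change of the mitochondrial share was between -0.13 and -0.09 in all fits that left out a sample, and that of the rRNA part between -0.31 and -0.21. Under limma, MT-RNR1, MT-CO1, MT-CO3, MT-ND4L and MT-ND5 lost their call, as MT-RNR1 and MT-ND5 did when no genes were filtered out, while MT-TI, MT-TQ, MT-TM and MT-TW gained one under limma. Scaling to the summed counts of the 13 mRNAs moved the median of all genes to 0.14. Relative to this sum of the mRNAs, 11 members were called, 9 lower and 2 higher (MT-CO2 and MT-ND2). MT-RNR1, MT-TV, MT-CO1, MT-TS1, MT-CO3, MT-ND4L, MT-TH, MT-ND5 and MT-TE lost their call there, and the sign turned for MT-TK (0.096), MT-ATP8 (0.073), MT-ATP6 (0.046), MT-ND3 (0.014), MT-CYB (0.035) and MT-TP (0.064). MT-TK also turned with library size alone (0.018) and with log2(FPKM + 0.1) (0.018) and log2(FPKM + 1) (0.018). Its values without single samples ran from -0.15 to 0.080, those of MT-TD from -0.27 to 0.048 and those of MT-ND2 from -0.018 to 0.051. None of these was called in the fits where the sign turned. The cause was not tested.

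The replicate numbers gave no sign of pairing over all tested genes, where same-numbered samples correlated at 0.034, -0.036 and -0.016 after removal of the group mean. Over the 37 members these correlations were -0.02, -0.53 and -0.79, and those of the other pairs ran from -0.71 to 0.79. The members thus varied together within the groups, but not by replicate number. With the replicate block, 19 members were called, MT-ATP6 (-0.09) being added. MT-TW, with 53 to 88 counts in a sample, missed the threshold, and MT-TV, with 85 to 153, passed it. Whether low counts decided which genes were called was not tested.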
